A study of Sisymbrium orientale with 12 samples.

Results

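A set of 10 loci of the Arabidopsis dehydrin, cold and abscisic acid response was followed in leaves of Sisymbrium orientale, a wild mustard and cropping weed. They are RD29A (AT5G52310), RD29B (AT5G52300), RAB18 (AT5G66400), COR15A (AT2G42540), COR47 (AT1G20440), ERD10 (AT1G20450), LTI30 (AT3G50970), LTP3 (AT5G59320), LTP4 (AT5G59310) and NCED3 (AT3G14440). A contig, an assembled transcript, was assigned to a locus when that locus was its closest Arabidopsis match in the deposited annotation. Of the 10 loci, 6 had contigs with values, and these held 10 of the 33277 contigs and 6 of the 16386 loci in the data. RD29B had 2 contigs, LTP3 had 2, LTP4 had 3, and RAB18, ERD10 and NCED3 had 1 each. RD29A matched 1 annotated contig of 1042 bases that has no row of values, and COR15A, COR47 and LTI30 were not analysed here.

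The study compared lines that are resistant or susceptible to the auxin herbicide 2,4-D, and its title attributes resistance to a deletion in the degron tail of IAA2, an auxin co-repressor. No plant was treated with the herbicide, cold or drought: leaves came from untreated plants in a growth chamber at 25 °C by day and 20 °C by night, with 16 h of light. Cross A gave F4 lines, resistant R202, R206 and R221 and susceptible S205, S207 and S242. Cross B gave F3 lines, resistant RP6 and RP8 and susceptible SP3, SP7, SP9 and SRP1, and differences between crosses cannot be told apart from differences between generations. Each line gave 1 library. The number of plants behind each library, and whether lines share a parent plant, are not in the labels. Every p-value therefore rests on the scatter among libraries alone, in which line, plant and technical differences cannot be told apart. In leaf tissue taken as a whole, fewer cells of a type and less RNA per cell cannot be told apart.

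Abscisic acid is the hormone of water shortage. NCED3 cleaves a carotenoid precursor in the step that limits its synthesis, and the hormone, bound by its receptors, blocks a group of protein phosphatases that otherwise hold the response down. The kinases and transcription factors released in this way switch on genes such as RAB18 and RD29B, while cold acts on an overlapping set through other factors. Dehydrins are hydrophilic proteins that build up in drying or chilled tissue, and lipid transfer proteins are small secreted proteins that bind lipids, several of which respond to abscisic acid in leaves.

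Whole libraries differed in ways that bear on these loci. The recovered depth was 100976475 reads in R206 to 145936928 reads in RP8, so that 3 reads correspond to 0.0196 to 0.0299 CPM. All 5 markers of leaf mesophyll, all 6 of guard cells, all 4 of epidermis and all 3 of phloem had contigs, whereas 1 of 3 root hair markers, 0 of 3 seed markers and 0 of 2 senescence markers did. The small chain of Rubisco, the carbon-fixing enzyme, took 6.62% of the values in S205 and 5.17% in SP9, against 3.39 to 4.60% in the other 10 libraries. S205 and SP9, both susceptible and from different crosses, therefore stand apart. Differences between phenotypes that move by over 1.5 times without them are also given without them. Outside this pair the Rubisco share was 3.39 to 3.79% in resistant lines and 3.49 to 4.60% in susceptible ones (median 4.34%). The share thus also ran higher in susceptible lines, and its part in differences between phenotypes was not tested.

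NCED3 was the least abundant of the 6 loci. Among resistant lines its single contig of 1014 bases stood at 0.203 CPM in R202, 0.399 in R206, 0.241 in R221, 0.437 in RP6 and 0.405 in RP8. Among susceptible lines the lowest value was 0.111 CPM in SRP1, the median 0.381 in S242 and the highest 1.57 in S205, with SP9 at 1.51. Only S205 and SP9 exceeded 1 CPM, and they stood 4.38-fold and 4.20-fold above the median of the other 10 libraries. These values rest on 14 reads in SRP1 and 182 in S205. The locus passed the filter for testing in no comparison, since 1 CPM in at least 5 libraries was required. With a filter of 1 CPM in 2 libraries, resistant minus susceptible was -0.30 (log2, SE 0.330). NCED3 passed that filter only through S205 and SP9, both susceptible, so this fit cannot decide on a difference between phenotypes.

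RAB18, a dehydrin whose messenger is a standard readout of the hormone, was highest in the same pair. Resistant lines lay close together, with 15.4 CPM in R202, 21.9 in R206, 22.9 in R221, 23.1 in RP6 and 22.2 in RP8. Susceptible lines ranged from 9.35 CPM in SRP1 through a median of 22.2 in S242 to 62.6 in SP9, with S205 at 43.2. The susceptible range enclosed that of the resistant lines. Resistant lines averaged 21.1 ± 3.24 CPM (SD, n = 5) and susceptible lines 27.9 ± 19.7 CPM (SD, n = 7). Their difference of -0.17 (log2, SE 0.437) did not pass the test (limma adjusted p = 0.888). Without S205 and SP9 it was 0.27 (adjusted p = 0.936), the opposite sign. Within cross A the difference was -0.66 (SE 0.588, limma adjusted p = 0.696), and it kept its sign without S205, at -0.44.

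Within cross B the other 3 susceptible lines were the lowest of all 12 in RAB18. SP3 stood at 15.3 CPM, SP7 at 9.71 and SRP1 at 9.35, all below RP6 and RP8. With S205 and SP9 left out, resistant minus susceptible within cross B was 0.99 (log2, SE 0.254, limma adjusted p = 0.340), against 0.38 (SE 0.624, adjusted p = 0.9997) with all lines. The former fit leaves out SP9, the only susceptible cross B line above RP6 and RP8, a choice made after seeing the data. It therefore cannot decide on a difference between phenotypes.

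ERD10, an acidic dehydrin induced early in dehydration and by cold, had the narrowest range of the 6 loci, 2.25-fold between highest and lowest library. Cross A gave 24.3 CPM in R202, 31.0 in R206, 26.6 in R221, 50.3 in S205, 27.6 in S207 and 30.8 in S242. Cross B gave 34.9 CPM in RP6, 40.6 in RP8, 46.4 in SP3, 50.7 in SP7, 54.7 in SP9 and 42.3 in SRP1. Except for S205, every line of cross A lay below every line of cross B. The mean was 31.8 ± 9.43 CPM (SD, n = 6) in cross A and 44.9 ± 7.17 CPM (SD, n = 6) in cross B. The difference, cross B minus cross A, was 0.46 (log2, SE 0.138) and did not pass the test (limma adjusted p = 0.151). Without S205 it was 0.60 and passed (adjusted p = 0.0230), and without both S205 and SP9 it was 0.56 and passed (adjusted p = 0.0270). Both fits leave out the only cross A line that overlapped cross B, so they cannot decide the call. In 20 of the 22 alternatives, edgeR and DESeq2 among them, the difference stayed uncalled.

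Between phenotypes ERD10 did not pass the test. The resistant mean was 31.5 ± 6.52 CPM (SD, n = 5) and the susceptible mean 43.3 ± 10.4 CPM (SD, n = 7). The log2 difference was -0.36 in cross A and -0.36 in cross B, and -0.36 over both (SE 0.140, limma adjusted p = 0.587). Without S205 the value in cross A was -0.099, and without both S205 and SP9 the values were -0.30 in cross B and -0.20 over both crosses (adjusted p = 0.926 for the last). Within cross B the groups did not overlap, as was true of 21.9% of tested loci, whereas in cross A they did.

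RD29B, a hydrophilic protein strongly induced by abscisic acid and salt, was highest in SP9. Among resistant lines it measured 48.5 CPM in R202, 32.7 in R206, 72.2 in R221, 65.3 in RP6 and 80.8 in RP8. Susceptible lines ranged from 42.5 CPM in SRP1 through a median of 70.3 in SP3 to 136 in SP9, and S205 came next at 96.0. The remaining lines of both phenotypes were intermixed. Resistant lines averaged 59.9 ± 19.3 CPM (SD, n = 5) against 74.8 ± 32.3 CPM (SD, n = 7) in susceptible ones, a difference of -0.25 (log2, SE 0.301, limma adjusted p = 0.753). Without S205 and SP9 the susceptible mean was 58.2 ± 12.7 CPM (SD, n = 5) and the difference 0.046. Within cross A RD29B differed by -0.52 (SE 0.415), or -0.29 without S205. Within cross B it differed by 0.060 (SE 0.440), or 0.38 without SP9. Its contigs, of 2993 and 2786 bases and named as isoforms of 1 assembled gene, kept nearly constant proportions, the longer one taking 57.4 to 61.1% of the locus in every library.

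LTP4, a lipid transfer protein, had the widest range of the 6 loci. Resistant lines gave 45.0 CPM in R202, 29.5 in R206, 56.7 in R221, 32.3 in RP6 and 38.1 in RP8. Susceptible lines ran from 23.7 CPM in SRP1 through a median of 58.7 in SP7 to 370.3 in SP9. S205 stood at 314.6 CPM and S242 at 140.9, while S207 and SP3, at 55.1 and 54.4 CPM, fell within the resistant range. The highest library was 15.6-fold above the lowest. S205 and SP9 were 6.33-fold and 7.45-fold above the median of the other 10 libraries, which was 49.7 CPM. S242, next after them, had a Rubisco small chain share of 3.49%, among the lower ones.

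**Figure D1:**
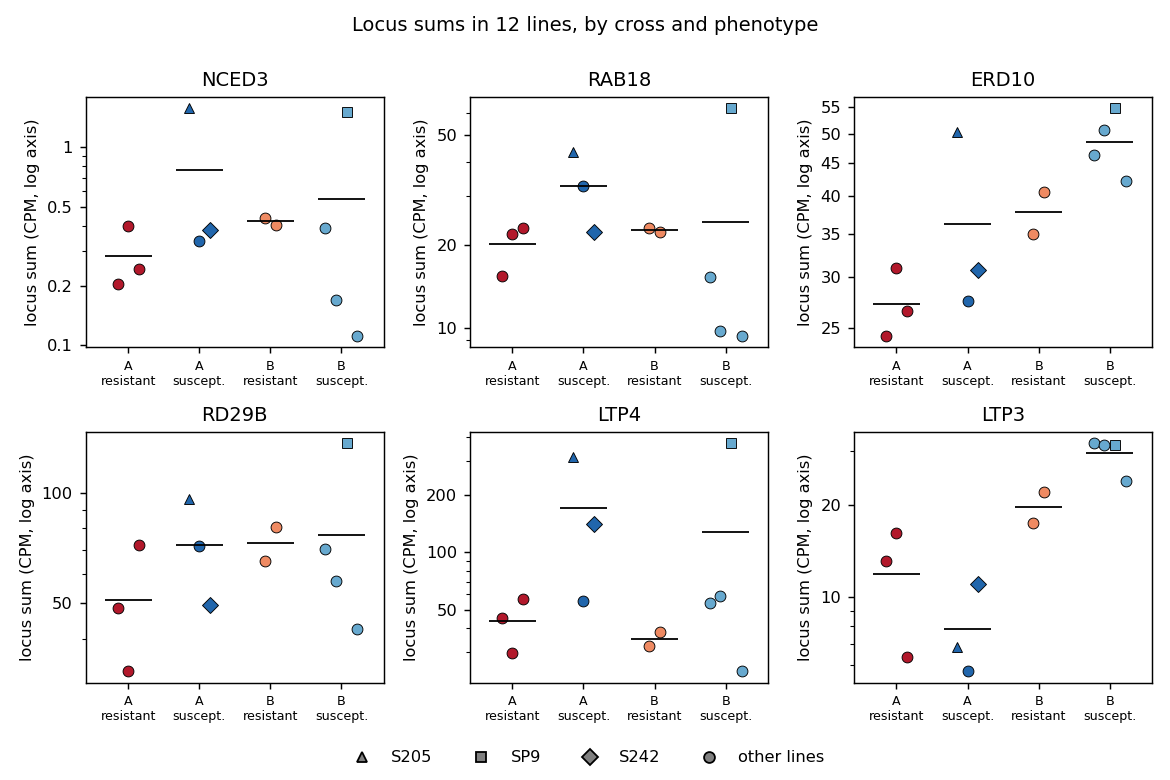
Locus sums (CPM, log axis) of the 6 loci by cross and phenotype. Each point is 1 library, horizontal bars are group means, and triangles, squares and diamonds mark S205, SP9 and S242. S205 and SP9 hold the 2 highest values of NCED3, RAB18, RD29B and LTP4, while LTP3 separates the crosses.

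Resistant lines averaged 40.3 ± 10.9 CPM of LTP4 (SD, n = 5) against 145 ± 140 CPM (SD, n = 7) in susceptible ones. Resistant minus susceptible was -1.37 (log2, SE 0.613) and did not pass the test (limma adjusted p = 0.587). It was -1.66 (SE 0.872) within cross A and -1.05 (SE 0.925) within cross B. As single libraries were left out, it ran from -2.30 without S207 to -1.05 without S205 in cross A, and from -1.58 without SRP1 to -0.27 without SP9 in cross B. Without S205 and SP9 the susceptible mean was 66.6 ± 43.9 CPM (SD, n = 5) and the difference -0.66 (SE 0.346, adjusted p = 0.926). By edgeR and DESeq2 it was -1.90, with adjusted p of at least 0.281 over all alternatives tried.

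The LTP4 contigs, 1 of the R and 2 of the S assembly, all had their highest values in S205 and SP9. SP9 had 74.5, 139.2 and 156.7 CPM and S205 64.9, 78.8 and 170.9 in the R contig of 650 bases and the S contigs of 628 and 710 bases. In the other 10 libraries the same contigs ranged from 4.48 to 27.8, from 9.12 to 41.5 and from 6.80 to 71.7 CPM. Resistant minus susceptible was -1.40, -1.49 and -1.22 in that order (limma adjusted p = 0.619, 0.619 and 0.634), and -0.69, -0.86 and -0.45 without S205 and SP9. Contigs of 1 locus can share reads and are not independent. The longer S contig took 54.3% of the locus in S205 and 28.6% in SRP1. In the authors' deposited table all 3 contigs are listed as lower in resistant lines, with log2 fold changes of -2.11, -2.11 and -1.96. Their p-values in the authors' deposited table are 1.55e-04, 2.52e-04 and 8.39e-04, and their FDRs 0.303, 0.364 and 0.715.

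LTP3, which neighbours LTP4 in the Arabidopsis locus numbering, had another pattern: it was higher in cross B. Cross A gave 13.1 CPM in R202, 16.2 in R206, 6.35 in R221, 6.85 in S205, 5.70 in S207 and 11.1 in S242. Cross B gave 17.4 CPM in RP6, 22.1 in RP8, 31.8 in SP3, 31.5 in SP7, 31.4 in SP9 and 23.9 in SRP1. The 6 libraries of each cross did not overlap, as was true of 331 of the 16051 tested loci (2.06%). The mean was 9.87 ± 4.26 CPM (SD, n = 6) in cross A and 26.4 ± 6.11 CPM (SD, n = 6) in cross B, a difference of 1.44 (log2, SE 0.269, limma adjusted p = 0.0321).

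LTP3 was the only one of the 5 tested loci called between crosses, where 200 of 16051 loci were called (1.25%), 90 of them higher in cross B (0.561%) and 110 lower (0.685%). ERD10 joined it at an unadjusted p under 0.05, as did 13.6% of all tested loci. Also by edgeR (adjusted p = 0.0485) and DESeq2 (adjusted p = 6.13e-05) it passed. The difference ranged from 1.27 to 1.61 as each library was left out, with cross B higher each time. It remained past the threshold without R202, R206 or RP6, with adjusted p of 0.0381, 0.00932 and 0.0284. The call was lost without R221 (adjusted p = 0.0599), RP8 (0.0788), S205 (0.0511), S207 (0.0839), S242 (0.0618), SP3 (0.0758), SP7 (0.0749), SP9 (0.0654) or SRP1 (0.0637), and without both S205 and SP9 (0.0786). The summed guard cell markers spanned 86.3 to 136 CPM in cross A and 74.7 to 119 CPM in cross B. For cross B minus cross A, 6 of 6 were negative (median log2 difference -0.25), opposite to LTP3. Epidermis markers were 3 of 4 negative (median -0.095). Phloem markers were 3 of 3 positive (median 0.097), mesophyll markers 3 of 5 (median 0.0086), and the 1 root hair marker stood at 0.45. The part of these markers in the result was not tested.

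Both LTP3 contigs were called between crosses, where 682 of 31337 contigs were (2.18%), 259 of them higher in cross B (0.826%) and 423 lower (1.35%), and 15.5% had an unadjusted p under 0.05. The R contig of 784 bases averaged 4.44 ± 2.60 CPM (SD, n = 6) in cross A and 13.99 ± 3.41 CPM (SD, n = 6) in cross B (log2 difference 1.70, SE 0.338, limma adjusted p = 0.0281). The S contig of 846 bases averaged 5.43 ± 1.69 CPM (SD, n = 6) and 12.4 ± 2.75 CPM (SD, n = 6) (log2 difference 1.13, SE 0.211, limma adjusted p = 0.0232). The ratio of R to S contig was 1.03 to 1.23 throughout cross B. In cross A it was 0.929 in R202, 1.05 in R206 and 0.952 in S242, but 0.489 in R221, 0.485 in S205 and 0.699 in S207. These last 3 lines, of both phenotypes, were also the 3 lowest in LTP3. For LTP4 the ratio of R to summed S contigs stayed between 0.210 and 0.290 in all 12 libraries.

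**Figure D2:**
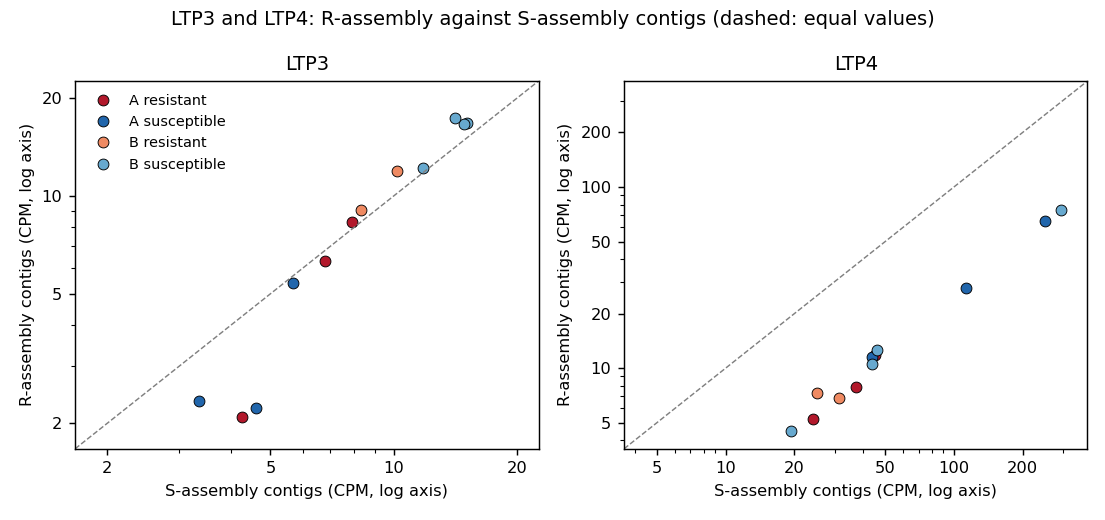
R-assembly against S-assembly contigs of LTP3 and LTP4 (CPM, both axes log), 1 point per library, coloured by cross and phenotype, with a dashed line of equal values. For LTP3, 5 of 6 cross A libraries fall below the line, 3 of them with ratios of 0.485 to 0.699, while cross B lies at 1.03 to 1.23. For LTP4 all ratios lie between 0.210 and 0.290.

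Between phenotypes LTP3 pointed in opposite directions. Resistant minus susceptible was 0.52 (log2, SE 0.317) in cross A and -0.58 (SE 0.336) in cross B, and 0.0044 over both, or -0.047 without S205 and SP9. The difference between crosses was -1.10 (SE 0.462) and did not pass the test (limma adjusted p = 0.999). In S205 LTP3 stood at 6.85 CPM, 0.408 of the median of the other 10 libraries, while LTP4 was 6.33-fold above its own. Lipid transfer proteins form a family of similar sequences, as do dehydrins, and no source used here says how reads matching several contigs were counted, so values of single loci are uncertain to that extent.

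Over both crosses 0 of the 5 tested loci were called between phenotypes, as were 0 of 16051 loci (0%). At an unadjusted p under 0.05 there were 2 of the 5, ERD10 and LTP4, and 1320 of all loci (8.22%). edgeR called 0 loci and DESeq2 called 20, none of the 5 among them. Of the contigs limma called 0 of 31337 (0%), with 8.01% at an unadjusted p under 0.05, while edgeR called 3 and DESeq2 84. Of the 6 loci with contigs, 0 had phenotypes that did not overlap over all 12 libraries, against 0.53% of tested loci. Within cross A the number was 0 of 6 against 7.58%, and within cross B it was 2 of 6, ERD10 and LTP3, against 21.9%.

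Within single crosses 0 of the 5 loci were called as well. Within cross A limma called 0 of 16051 loci (0%), with 5.16% at an unadjusted p under 0.05 and 0 of the 5 among them, while edgeR called 0 and DESeq2 9. Within cross B limma called 4 loci (0.0249%), with 4.4% at an unadjusted p under 0.05 and 0 of the 5 among them, while edgeR called 4 and DESeq2 66. For the contrast of the 2 crosses limma called 0 (0%), with 498 at an unadjusted p under 0.05 (3.1%), of which LTP3 was the only one of the 5, while edgeR called 0 and DESeq2 16. None of the 5 loci was called by either tool in these 3 comparisons.

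**Figure D3:**
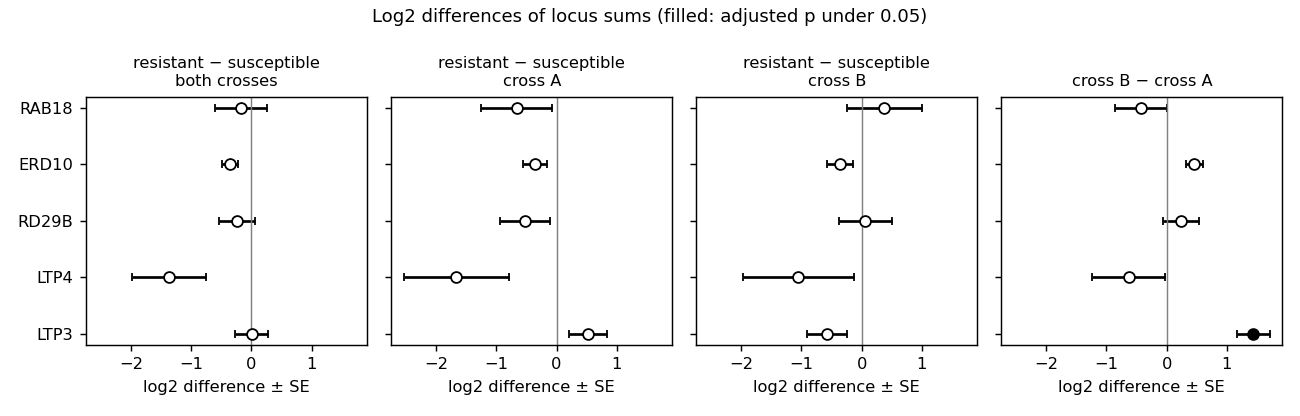
Log2 differences of locus sums with their standard errors for the 5 tested loci in 4 comparisons. A filled point marks an adjusted p under 0.05, which LTP3 reached between crosses at 1.44. LTP4 has the widest errors, with -1.37 ± 0.613 between phenotypes over both crosses.

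Of the 6 loci with contigs 4, NCED3, RAB18, RD29B and LTP4, had their 2 highest values in S205 and SP9. The same held for 2667 of the 16051 tested loci (16.6%), and for 3 of the 5 tested ones here. In ERD10 SP9 was highest, with SP7 ahead of S205, and in LTP3 S205 was among the lowest. The phloem markers summed to 404 CPM in S205 and 325 CPM in SP9, against 80.2 to 200 CPM in the other 10 libraries. Mesophyll markers summed to 79135 and 60600 CPM against 29582 to 45253 CPM. That sum is mostly RBCS1A, itself a Rubisco small chain gene, with 48880 CPM in S205. Of the 5 mesophyll markers RBCS1A, RCA and CA1 were highest in the pair. In S205 LHCB1.1 and LHCB2.1, at 3796 and 486 CPM, lay within the range of the other libraries. In SP9 these markers, at 5934 and 1148 CPM, were higher than in any other library. Epidermis markers summed to 328 and 401 CPM against 453 to 838 CPM, a gap carried by PDF1 at 63.5 and 89.2 CPM against 167 to 517 CPM. CER6 was highest in the pair, at 28.1 and 35.0 CPM, and ATML1 lay within the range of the others. The part of these cell type markers and of the Rubisco small chain in the values of S205 and SP9 was not tested.

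**Figure D4:**
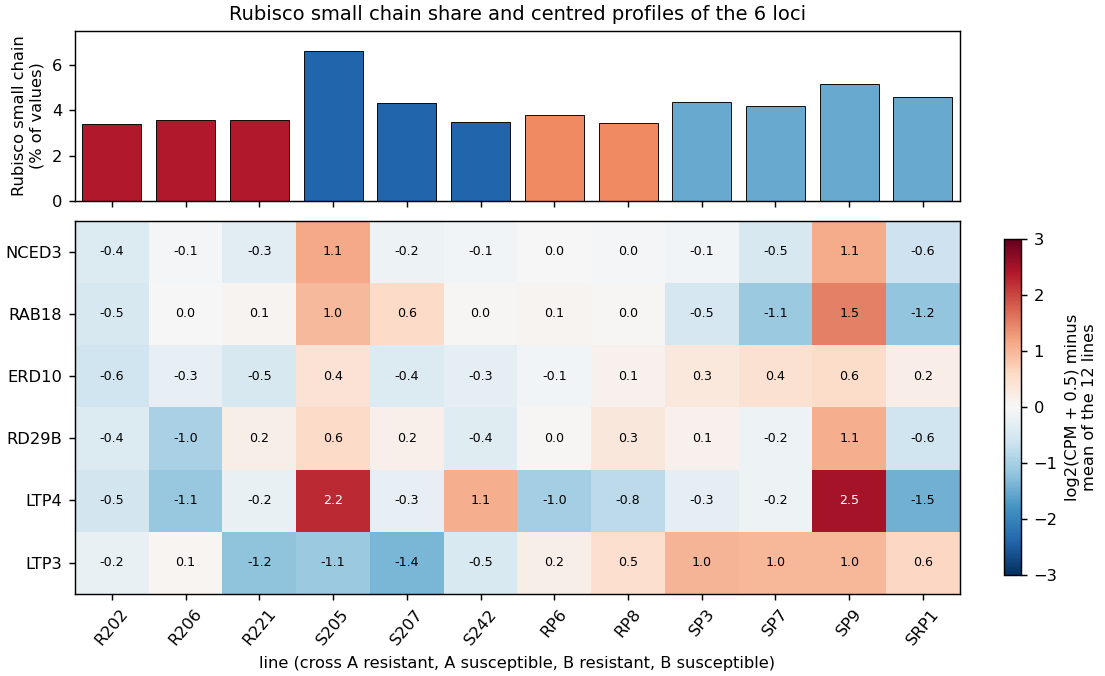
Rubisco small chain share per library (bars, percent of values) above the centred values of the 6 loci (log2(CPM + 0.5) minus the mean of the 12 lines, colour scale). S205 and SP9 have the highest shares, 6.62 and 5.17%, and the 2 highest values of NCED3, RAB18, RD29B and LTP4, whereas LTP3 follows the crosses.

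Scatter between libraries of 1 group differed among the loci. The standard deviation within groups on the log2 scale was 1.22 for LTP4, 0.82 for RAB18, 0.58 for RD29B, 0.43 for LTP3 and 0.27 for ERD10, and the median over all tested loci was 0.21. LTP4 scattered more than 99.1% of tested loci and ERD10 more than 63.4%.

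Per kilobase of contig LTP4 was the most abundant, with a median of 82.1 CPM per kilobase and a mean of 152 ± 175 (SD, n = 12). ERD10 followed with a mean of 32.3 ± 8.88, then RAB18 with 27.5 ± 16.6, RD29B with 23.6 ± 9.51, LTP3 with 22.3 ± 12.3 and NCED3 with 0.506 ± 0.485 CPM per kilobase. LTP4 exceeded ERD10, and LTP3 exceeded NCED3, in 12 of 12 libraries. Each neighbour between them held its rank in 8 of 12 libraries, so the order of ERD10, RAB18, RD29B and LTP3 does not exceed their spread.

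Loci with the most similar profiles were sought for the 4 loci that spanned at least 2 log2 units. Likeness was the root mean square difference of centred log2 values over the 12 libraries. For RAB18 the nearest were RD20, a caleosin induced by drought, at 0.308, and the phosphatases ABI1 and PP2CA, which hold down the hormone response, at 0.336 and 0.338. RD20 measured 358.0 CPM in S205 and 339.5 in SP9, and its lowest value was 68.7 CPM in SRP1, the library where RAB18 was also lowest. PP2CA measured 80.2 CPM in S205 and 105.9 in SP9, against 24.3 to 42.3 CPM elsewhere.

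**Figure D5:**
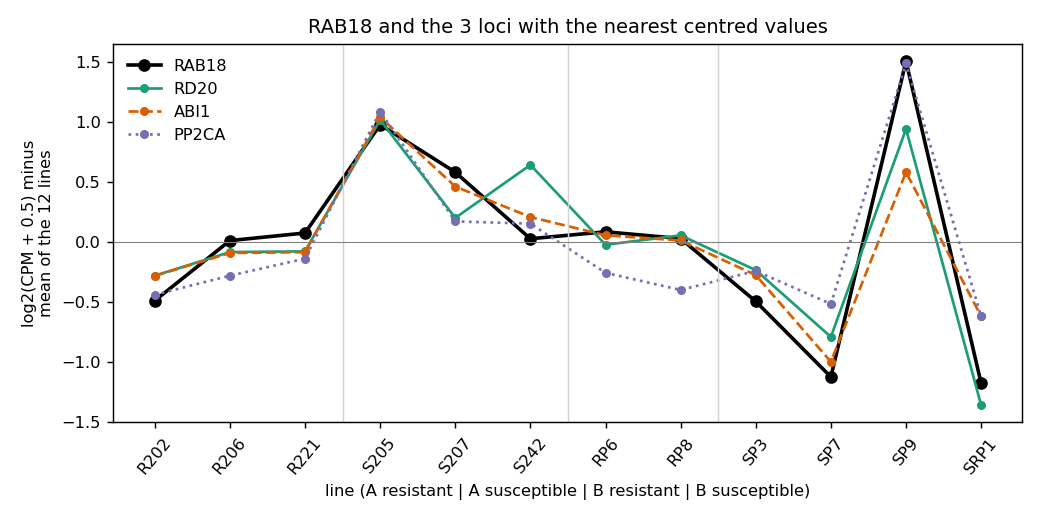
Centred values (log2(CPM + 0.5) minus the mean of the 12 lines) of RAB18 and its 3 nearest loci, RD20, ABI1 and PP2CA, with lines ordered by cross and phenotype. All 4 peak in S205 and SP9, and RAB18 and RD20 are lowest in SRP1.

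For RD29B the nearest loci were ferric reduction oxidase 8 (0.237), beta glucosidase 9 (0.257) and phosphoglucan water dikinase (0.257), the last acting in starch breakdown. For LTP4 they were AT2G37870, annotated to the same lipid transfer superfamily, at 0.396, a remorin at 0.571 and AT3G27250, of unknown function, at 0.572. For LTP3 they were a prolyl oligopeptidase (0.268), AT5G64710 (0.308) and AT4G01740 (0.336). Among the 10 loci themselves, NCED3 was nearest to RAB18 (0.392), RD29B (0.395) and LTP4 (0.825), and ERD10 nearest to LTP3 (0.679).

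The wider pathway was described with 90 further loci, of which 57 had contigs and 55 were tested. In each of the 5 comparisons 0 of the 55 were called by limma and 0 by edgeR, while DESeq2 called LTP5 between crosses (adjusted p = 0.0346). At an unadjusted p under 0.05 limma had 6 of the 55 between phenotypes, 7 between crosses, 3 in cross A alone, 5 in cross B alone and 2 for the contrast of the crosses. Between phenotypes 41 differences were negative and 14 positive, with a median of -0.14 against -0.0063 over all tested loci. Within cross A the median was -0.26 and within cross B -0.0030. Without S205 and SP9, 28 of the differences between phenotypes were negative and 27 positive, with a median of -0.0084. Within cross A 42 of the 55 then stayed negative (median -0.14, against -0.0033 over all tested loci). Within cross B 34 were positive (median 0.10, against -0.012 over all). These sign counts were not tested, and loci of 1 pathway need not be independent, so they cannot decide whether the crosses differ. S205 and SP9 held the 2 highest values of 21 of the 55 loci (38.2%), against 16.6% of all.

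The share of loci with this ranking is given here for each list, with no test. Of the phosphatases, 5 of 7 were highest in S205 and SP9, ABI1, ABI2, HAB1, HAB2 and PP2CA, and of the abscisic acid and drought targets 7 of 9. RD26, a transcription factor, P5CS1, an enzyme of proline synthesis, and LEA14, a late embryogenesis abundant protein, were among the latter. LEA14 measured 10.5 CPM in S205 and 7.63 in SP9, with at most 4.54 CPM elsewhere. Of the hormone receptors 0 of 7 did so, of the synthesis enzymes 2 of 4, ABA1 and AAO3, and of the kinases and factors 2 of 7, ABF2 and ABF3. Both other dehydrins tested, ERD14 and HIRD11, did so, as did 1 of 9 cold regulators, 2 of 6 cold targets, 0 of 3 other lipid transfer proteins and 0 of 1 breakdown enzyme.

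All 7 phosphatases had negative differences between phenotypes (median -0.21), and within cross B 5 were positive with a median of 0.031. Without S205 and SP9, 4 of the 7 were positive over both crosses (median 0.024). Within cross B 6 were then positive (median 0.23), while within cross A all 7 stayed negative (median -0.49). Markers of mesophyll, 5 of 5 negative (median -0.44), and of phloem, 3 of 3 negative (median -0.46), differed between phenotypes in the same direction over both crosses. Without the pair their medians were -0.19 and -0.094. Phloem markers were then 3 of 3 positive in cross A (median 0.18) and 3 of 3 negative in cross B (median -0.35), opposite to most phosphatases. Mesophyll markers were 5 of 5 negative in cross A (median -0.17) and 4 of 5 in cross B (median -0.028). With all lines, guard cell markers, 3 of 6 positive (median 0.12), and epidermis markers, 3 of 4 positive (median 0.091), did not share the direction. The part of these markers in the pathway differences was not tested. HAI1 averaged 1.34 ± 0.361 CPM in resistant lines (SD, n = 5) against 3.02 ± 2.03 CPM in susceptible ones (SD, n = 7), a difference of -0.80 (log2, limma adjusted p = 0.587). RD26 averaged 9.06 ± 1.85 CPM (SD, n = 5) and 13.4 ± 3.17 CPM (SD, n = 7), a difference of -0.55 (adjusted p = 0.587). Without S205 and SP9 HAI1 was at -0.58 and RD26 at -0.37. All 6 cold targets were negative over both crosses (median -0.21) and in cross A (median -0.48), while in cross B 4 of 6 were positive (median 0.065). Without S205 and SP9, 3 of the 6 were negative over both crosses (median -0.014). All 6 then stayed negative in cross A (median -0.23), and 5 were positive in cross B (median 0.21). ICE1 and ICE2, upstream factors of the cold response, were positive at 0.30 and 0.34, as was the receptor PYL2 at 0.31 (limma adjusted p = 0.587 for each). ICE1 was lowest in SP9 and S205, ICE2 in S205 and SP9, and without these libraries they were at 0.16 and 0.20.

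Within cross A the smallest p-values belonged to ABA1, LEA14, RD26, PYL8 and ABI1, with log2 differences of -0.58, -1.12, -0.60, 0.22 and -0.72 (limma adjusted p = 0.686 for each). Without S205 these were -0.34, -0.72, -0.41, 0.17 and -0.49. Within cross B they belonged to CYP707A2, which breaks the hormone down, at 0.57 (adjusted p = 0.935), and to ABF1, ICE1, PYL2 and SNRK2.2 at 0.35, 0.46, 0.43 and -0.29 (adjusted p = 0.9997 for each). For the difference between crosses CYP707A2, SNRK2.2, ABI1, COR15B and PYL8 gave 0.68, -0.39, 1.08, 1.73 and -0.30 (adjusted p = 0.999 for each). COR15B, a chloroplast protein induced by cold, measured 51.9 CPM in S205 and 5.57 to 18.3 CPM in the other 11 libraries, and without S205 its difference of 1.73 was 0.93.

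Between crosses LTP5, another lipid transfer protein, had the smallest p of the pathway loci. It averaged 119 ± 19.5 CPM (SD, n = 6) in cross B and 82.0 ± 20.1 CPM (SD, n = 6) in cross A, a difference of 0.50 (log2, SE 0.142, limma adjusted p = 0.129). GOLS1, an enzyme of raffinose synthesis, the kinase OST1 and the receptor PYL7 gave -0.82, -0.33 and -0.56, and the receptor PYL1 0.34, none past the threshold (limma adjusted p = 0.216, 0.236, 0.245 and 0.313).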

How the data were processed

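RNA-seq was made from leaves of 12 lines with a stranded mRNA kit, per the labels' protocols. The authors deposited a normalized coverage signal per contig, called CPM here, on a scaled library size: columns sum to 915639 to 1180044, and dividing by the smallest step gave whole numbers (within 0.1) for 100% of values. The submitters' processing notes name Bowtie2, SAMtools 1.3.1, edgeR, R 3.3 and TAIR10, without their roles. The authors' deposited comparison lists 277 contigs with log2 fold changes and p-values, 8 at an FDR of at most 0.05.

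Contigs were summed per Arabidopsis locus. Features reaching 1 CPM in 5 or more libraries were tested with limma 3.58.1 (R 4.3.3, trend) on log2(value + 0.5), which understates changes of low genes, with Benjamini-Hochberg adjustment over all tested features and a threshold of 0.05. Cross was a covariate between phenotypes, and phenotype between crosses; 1 mean per group served the other comparisons. Alternatives were other pseudocounts, filters, scaling, robust limma, no covariate, edgeR 4.0.16 and DESeq2 1.42.0 on recovered reads, and each library left out; leaving out both S205 and SP9 was added after seeing the data. The scripts were tested on simulated data. The design assumed plain CPM, and the same test was kept for the scaled values. The limits of 3 reads cover counting error only.

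All loci of the group are named, with all their contigs. Of the pathway lists, per comparison, called loci or otherwise the 5 with the smallest p are named, and the 3 nearest loci for each member spanning 2 log2 units; other named loci were chosen after their values were seen. Members and lists were chosen with earlier results of these data known.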

Additional observations from a re-analysis of the deposited data

Results flagged for a closer look

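Among the 4 susceptible lines of cross B, 1 library lay far from the other 3 in 9 of the 34 values examined. Distance was judged on CPM, not on the log2 scale of the tests, so this count cannot be set against a chance rate. SP9 was far above the others in RAB18, at 62.6 CPM in the locus and in its only contig. It was also far above in LTP4, at 370.3 CPM for the locus and 74.5, 139.2 and 156.7 CPM for its contigs, and in the phosphatase HAI1, at 7.34 CPM. SRP1 was far below the others in LTP3, at 23.9 CPM, and in the R contig of LTP3, at 12.1 CPM. These values are not independent, since a locus is the sum of its contigs.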

How the results depend on the processing

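No paired analysis was possible because lines carry names, not replicate numbers shared between groups. Counts of called features moved as follows; the cause was not tested. With DESeq2 they were 20 loci between phenotypes, 772 between crosses, 9 within cross A, 66 within cross B and 16 for the difference, and 84 contigs between phenotypes and 1742 between crosses. A pseudocount of 2 gave 1 within cross A and 2 within cross B. For contigs between phenotypes a pseudocount of 0.1 gave 2, edgeR 3 and no covariate 1. Without both S205 and SP9 there were 1 within cross A, 23 within cross B and 5 for the difference, and 3 contigs between phenotypes and 407 between crosses. As each library was left out, the ranges were 54 to 270 loci between crosses, 0 to 6 within cross A, 0 to 17 within cross B, 0 to 7 for the difference, and 0 to 4 contigs between phenotypes and 246 to 1072 between crosses.

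Signs turned only for uncalled differences. Between phenotypes RD29B became 0.046 and RAB18 0.27 without both libraries, and RAB18 ranged from -0.33 to 0.071 (without SP9) as each was left out. LTP3 became -0.014 with a pseudocount of 2, -0.24 without the covariate and -0.047 without both libraries, and ranged from -0.18 to 0.20 as each was left out. Within cross B RD29B became -0.064 with edgeR and -0.070 with DESeq2, ranging from -0.17 to 0.38 over libraries left out, and RAB18 became -0.092 and -0.099. The difference between crosses of ERD10 became -0.0030 with median-ratio scaling and -0.20 without both libraries, ranging from -0.26 to 0.17. Low counts limit NCED3.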
